A study of Mus musculus with 14 samples.

Results

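Pramef6, Pramef8, Pramef17, Pramel4, Pramel5, Gm13078, Gm13083, Gm13109, Gm13119 and Gm13128 are 10 genes of the PRAME family in a single cluster on mouse chromosome 4. They were taken by symbol from a table of 22492 gene symbols, in which 44 PRAME-family genes were found, 26 of them in this cluster. On mm9 the 10 genes spanned positions 143002329 to 143954322, or 952 kb, with 13 other PRAME-family genes between them. The 10 symbols were chosen with earlier results of these libraries known, and the exact values used are not recorded. They are treated here as selected on low FPKM in SCNT against IVF 2-cell embryos and on higher FPKM at the 2-cell than at the 1-cell stage of IVF embryos. Their levels in SCNT and IVF 2-cell embryos, and in IVF embryos of both stages, are therefore given as descriptions with no test. The difference between Kdm4d and mutant Kdm4d embryos uses no library of those groups. The variance in its test, however, was pooled over all 14 libraries, theirs included. Whether results of this comparison also helped choose the genes is not recorded. Members' p-values are given for this comparison alone. Every other comparison has an arm in the SCNT 2-cell, IVF 2-cell or IVF 1-cell libraries, and its differences are given as descriptions.

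RNA-seq was done on 14 libraries in 7 groups of 2. Somatic cell nuclear transfer (SCNT) replaces the nucleus of an oocyte with that of a body cell, here a cumulus cell, and in vitro fertilisation (IVF) gave the embryos it was set against. The groups were SCNT 2-cell embryos overexpressing Kdm4d, SCNT 2-cell embryos overexpressing a mutant Kdm4d, plain SCNT 2-cell embryos, IVF 2-cell embryos, SCNT 1-cell embryos, IVF 1-cell embryos and the donor cumulus cells. Kdm4d encodes a demethylase of histone H3 lysine 9, and neither its mutation nor how it was introduced is stated. By the strain labels, every SCNT group combined a donor nucleus of (C57BL/6J x CAST/EiJ) F1 origin with a B6D2F1 oocyte. The IVF embryos were C57BL/6J oocyte x CAST/EiJ sperm, so the oocyte strain differed between SCNT and IVF groups. The growth protocol names BDF1 females as the source of cumulus cells, which does not match the strain label. Each library pooled 25 embryos in the Kdm4d, mutant Kdm4d and IVF 2-cell groups, 40 in the SCNT 2-cell group, 36 in the SCNT 1-cell group and 32 or 31 in the IVF 1-cell group, and about 1000 cells for donors. Nothing in the labels says that the 2 libraries of a group came from separate experiments, so p-values measure only the spread between these libraries.

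PRAME proteins are built of leucine-rich repeats. The human gene that gave the family its name is a cancer-testis antigen, silent in most adult tissues and switched on in tumours, and its protein represses retinoic acid receptor signalling and serves as a substrate receptor of a cullin ubiquitin ligase. The family has been multiplied by tandem duplication in mice, and its members are transcribed in germ cells, oocytes (the oogenesins, Oog1 to Oog4, belong to the family) and early embryos. Many mouse members are first transcribed when the embryo switches on its own genome at the 2-cell stage, a step at which SCNT embryos often falter. No separate role is given here for the 10 genes, so they are ordered by their likeness in sequence.

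Because the genes are recent duplicates, reads of 50 bases cannot always be assigned to one of them. No 50-base stretch of the Pramef8 transcript recurred in another gene (GENCODE M21 transcripts). The shared part was 14.8% of stretches for Gm13078, 25.9% for Gm13083, 27.1% for Pramel5, 35.2% for Pramef6 and 38.6% for Gm13119. It was 63.5% for Gm13109, 73.5% for Pramef17, 73.8% for Gm13128 and 92.8% for Pramel4. Pramef17 and Gm13128 shared theirs with each other and were 99.3% identical, whereas Pramel4 shared 91.4% of its stretches with Gm13102, a neighbour outside the 10. The values of all members but Pramef8 are therefore uncertain as to which copy they belong to, and those of the last 4 the most so.

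Some upstream sequences of the 10 genes were close to each other, and some were closer to those of other PRAME-family genes. RefSeq promoters (GRCm38.p6) were at hand for 9 of the 10 genes, all but Pramef8. Of the 36 pairs, Pramef17 and Gm13128 were 97.3% identical, Pramef6 and Gm13078 85.0%, and Pramel4 and Pramel5 82.3%, against at most 51.0% for any other pair of members and a median of 47.0%. Gm13083, Gm13109 and Gm13119 had no close partner among the 10, but Gm13119 was 94.0% identical to Gm13043, which lies elsewhere in the cluster. Pramel4 was closer to Gm13102 (88.7%) and to Gm12789 (83.0%), which lies outside the cluster, than to Pramel5, and Pramel5 was closer to Gm13102 (84.0%) than to Pramel4. The 250 bases before the start are shown for the pair of Pramef6 and Gm13078 and that of Pramel4 and Pramel5, because they hold the most abundant members, Gm13078 and Pramel5. Capitals mark TAATCC on either strand (GGATTA where it lies on the opposite strand), the letters bound by homeodomain proteins of the bicoid class, to which the Otx and Obox factors belong. Gm13078 lies at chr4:143719201-143719450 on the plus strand, Pramef6 at chr4:143900381-143900630 on the minus strand, Pramel4 at chr4:144058875-144059124 on the plus strand and Pramel5 at chr4:144280467-144280716 on the minus strand.
Gm13078: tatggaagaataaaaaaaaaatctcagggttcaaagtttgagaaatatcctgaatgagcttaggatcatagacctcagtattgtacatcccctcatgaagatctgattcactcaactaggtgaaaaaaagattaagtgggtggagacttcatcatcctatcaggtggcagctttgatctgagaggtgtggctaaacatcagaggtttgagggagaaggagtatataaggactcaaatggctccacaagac
Pramef6: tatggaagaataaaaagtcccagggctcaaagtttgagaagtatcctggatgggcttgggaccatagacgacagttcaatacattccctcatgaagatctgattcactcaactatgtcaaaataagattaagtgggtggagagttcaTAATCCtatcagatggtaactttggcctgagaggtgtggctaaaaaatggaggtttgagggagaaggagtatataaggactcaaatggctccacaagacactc
Pramel4: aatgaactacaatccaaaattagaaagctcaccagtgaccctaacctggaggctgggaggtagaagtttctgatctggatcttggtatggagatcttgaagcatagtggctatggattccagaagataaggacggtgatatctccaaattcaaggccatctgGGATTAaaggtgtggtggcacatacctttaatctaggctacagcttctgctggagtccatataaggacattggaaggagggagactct
Pramel5: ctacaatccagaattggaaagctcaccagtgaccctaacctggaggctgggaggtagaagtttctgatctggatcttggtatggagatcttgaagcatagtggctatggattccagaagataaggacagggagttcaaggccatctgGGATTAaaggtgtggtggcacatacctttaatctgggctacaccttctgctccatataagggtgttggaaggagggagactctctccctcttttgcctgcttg

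TAATCC stands in 3 of the 4 sequences shown and is not found in that of Gm13078. Searched from 250 bases before to 50 after the start on both strands, TAATCC was found for 3 of 9 members, Pramef6, Pramel4 and Pramel5, and in 7.06% of all 32851 promoters. It was found for 1 of 15 other PRAME-family genes of the cluster and 2 of 12 elsewhere. TATAAA was found for 1 of 9 members and in 13.6% of all promoters, CCAAT for 4 of 9 and in 37.4%, and GGGCGG for 0 of 9 and in 35.7%. No motif is contained in another, though neighbouring matches can overlap, and close pairs such as Pramel4 and Pramel5 are not independent cases.

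The 10 genes were low or absent before the 2-cell stage. Apart from Pramef8, no member exceeded 0.997 FPKM in an SCNT 1-cell library, 1.18 FPKM in an IVF 1-cell library or 0.0495 FPKM in a donor library (FPKM is scaled for transcript length and library size, so that genes can be compared). Pramef8 was already present, at 8.92 and 10.4 FPKM in SCNT 1-cell embryos, 9.53 and 8.12 FPKM in IVF 1-cell embryos, and 2.31 and 2.16 FPKM in donor cells. Summed over the 10 genes, levels were 223 and 280 FPKM in Kdm4d embryos, 21.4 and 30.7 FPKM in mutant Kdm4d embryos, 31.8 and 29.5 FPKM in SCNT 2-cell embryos and 310 and 282 FPKM in IVF 2-cell embryos. At the 1-cell stage the sums lay between 11.3 and 13.4 FPKM in SCNT and IVF embryos alike, and they were 2.47 and 2.30 FPKM in donor cells. The Kdm4d and IVF 2-cell libraries thus stood together, several-fold above the mutant Kdm4d and SCNT 2-cell libraries, whose sums overlapped. Gm13078 made up 48.3% and 47.6% of the sum in Kdm4d embryos and 60.2% and 57.6% in IVF 2-cell embryos. Without it the sums were 115 and 147 FPKM in Kdm4d embryos and 123 and 120 FPKM in IVF 2-cell embryos. They were 21.3 and 26.0 FPKM in mutant Kdm4d embryos and 31.0 and 26.9 FPKM in SCNT 2-cell embryos. The gap between the high and the low groups thus did not rest on Gm13078. Without it, however, the Kdm4d and IVF sums overlapped, and both mutant sums lay below both SCNT sums. Pramel5 alone gave 52.9 and 69.4 FPKM of the remaining Kdm4d sums.

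**Figure D1:**
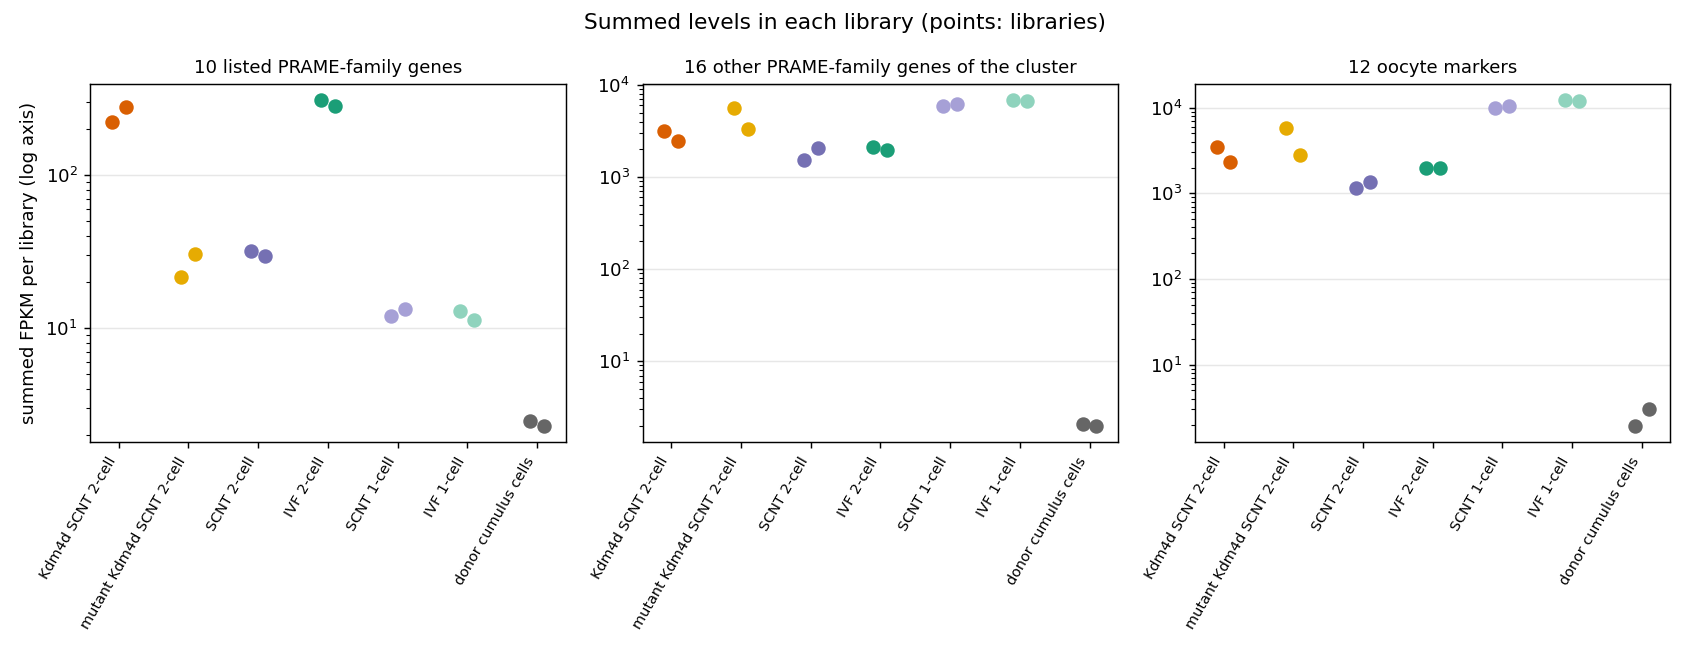
Summed FPKM by library on a log axis, for the 10 genes, the 16 other PRAME-family genes of the cluster and 12 oocyte markers; each point is a library. The sums of the 10 genes are 223 and 280 in Kdm4d embryos against 31.8 and 29.5 in SCNT 2-cell embryos. The other 16 sum to 3170 and 2450 against 1540 and 2080. Most of that is Oog3 alone, with 2787 and 2193 against 1268 and 1750.5.

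Levels of single members in the 4 groups of 2-cell embryos show which genes carried this. Gm13078 (chromosome 4, 143309358 to 143319061, plus strand; Pramel24 in RefSeq) had 108 and 133 FPKM in Kdm4d embryos, 0.146 and 4.69 FPKM in mutant Kdm4d embryos, 0.785 and 2.59 FPKM in SCNT embryos and 186 and 163 FPKM in IVF embryos. It was the most abundant member in both high groups, and its mutant and SCNT libraries overlapped with a wide spread. Pramef6 (143484140 to 143490283, minus strand; Pramel11), which has the similar upstream sequence, had 12.8 and 17.2 FPKM in Kdm4d embryos, 0.775 and 0.375 FPKM in mutant Kdm4d embryos, 0.0881 and 0.675 FPKM in SCNT embryos and 33.0 and 30.9 FPKM in IVF embryos. Gm13083 (143204906 to 143208498, plus strand; Pramel21), the closest of the 10 to Pramef6 with transcripts 96.2% identical, had 2.27 and 3.02 FPKM in Kdm4d embryos, 0.246 and 0.426 FPKM in mutant Kdm4d embryos, 0.010 and 0.168 FPKM in SCNT embryos and 10.5 and 11.8 FPKM in IVF embryos. All 3 were lower in SCNT than in IVF 2-cell embryos by the widest margins of the 10, with SCNT means at 0.967%, 1.19% and 0.8% of the IVF mean for Gm13078, Pramef6 and Gm13083.

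Pramel5 and Pramel4 stood apart in the other direction. Pramel5 (143860536 to 143870369, minus strand) had 52.9 and 69.4 FPKM in Kdm4d embryos, 8.76 and 12.2 FPKM in mutant Kdm4d embryos, 17.4 and 14.1 FPKM in SCNT embryos and 25.3 and 26.5 FPKM in IVF embryos. It was the most abundant member in mutant and SCNT embryos. Pramel4 (143649029 to 143659221, plus strand) had 5.54 and 11.9 FPKM in Kdm4d embryos, 0.526 and 1.15 FPKM in mutant Kdm4d embryos, 1.27 and 0.991 FPKM in SCNT embryos and 4.02 and 3.21 FPKM in IVF embryos. In both genes the Kdm4d libraries lay above every IVF library, as they also did, by less, in Pramef17. No other member was as high in SCNT embryos relative to IVF as Pramel5, at 60.6%.

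The near-identical Pramef17 (143581022 to 143584272, minus strand; Pramel14) and Gm13128 (143920152 to 143923368, plus strand; Pramel30) lie some way apart in the cluster. Pramef17 had 5.11 and 6.92 FPKM in Kdm4d embryos, 0.231 and 0.263 FPKM in mutant Kdm4d embryos, 0.993 and 0.886 FPKM in SCNT embryos and 4.94 and 4.31 FPKM in IVF embryos. Gm13128 had 6.81 and 12.3 FPKM in Kdm4d embryos, 0.697 and 0.432 FPKM in mutant Kdm4d embryos, 0.924 and 0.850 FPKM in SCNT embryos and 7.20 and 6.00 FPKM in IVF embryos. Kdm4d and IVF libraries overlapped in Gm13128, and in Pramef17 both Kdm4d libraries lay above both IVF libraries. Both genes were low in all mutant and SCNT libraries. Reads of one copy may have been counted to the other.

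Gm13109, Gm13119 and Pramef8 complete the set. Gm13109 (143538485 to 143540919; Pramel16) had 12.8 and 11.4 FPKM in Kdm4d embryos, 0.296 and 1.23 FPKM in mutant Kdm4d embryos, 2.57 and 2.06 FPKM in SCNT embryos and 15.5 and 15.4 FPKM in IVF embryos. Gm13119 (143947867 to 143954322, plus strand; Pramel31) had 2.60 and 4.84 FPKM in Kdm4d embryos, 1.62 and 1.33 FPKM in mutant Kdm4d embryos, 1.60 and 1.02 FPKM in SCNT embryos and 5.12 and 4.38 FPKM in IVF embryos. Both had their mutant and SCNT libraries below each Kdm4d library, and the Kdm4d and IVF libraries of Gm13119 overlapped. Pramef8 (143002329 to 143010990; Pramel12), the first of the 10 by position, had 14.4 and 10.1 FPKM in Kdm4d embryos, 8.13 and 8.58 FPKM in mutant Kdm4d embryos, 6.21 and 6.17 FPKM in SCNT embryos and 17.7 and 16.9 FPKM in IVF embryos. None of its libraries was near 0, and its SCNT libraries were the lowest of its 2-cell embryos.

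**Figure D2:**
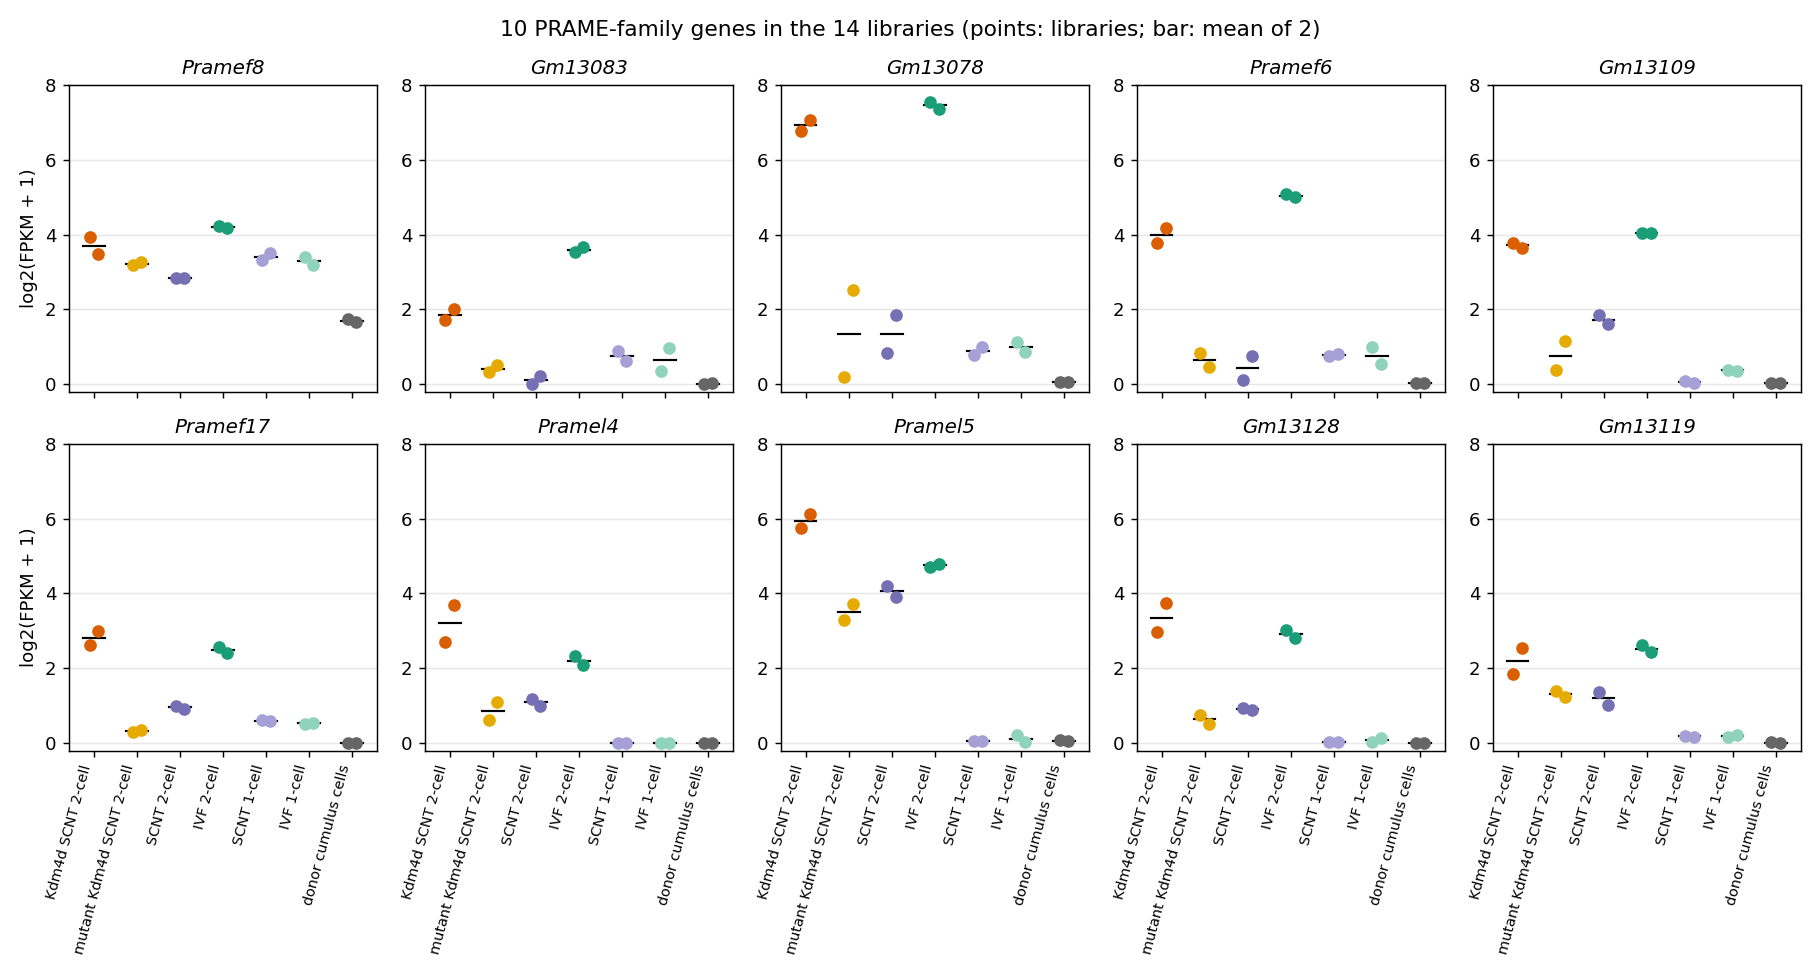
Level of each of the 10 genes by library on the log2(FPKM + 1) scale, with groups along the horizontal axis, each point a library and each bar the mean of 2. Kdm4d libraries of Gm13078 sit at 108 and 133 FPKM beside SCNT 2-cell libraries at 0.785 and 2.59 FPKM, while Pramef8 shows a level in every group.

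The 10 genes were higher in embryos overexpressing Kdm4d than in those overexpressing mutant Kdm4d. All 10 members were higher in Kdm4d than in mutant Kdm4d embryos and none lower at a limma adjusted p under 0.05. Of all 13452 tested genes, 21.3% were called higher and 22.3% lower. Whether this contrast helped choose the genes is not recorded, so the count describes them only. Both Kdm4d libraries lay above both mutant libraries in each of the 10, which was so for 27.7% of tested genes. On the log2(FPKM + 1) scale, which understates changes of low genes, the members' median difference was 2.46, against -0.0948 for all genes. The difference was 5.56 for Gm13078 (SE 0.55, limma adjusted p = 3.5e-05), 3.34 for Pramef6 (SE 0.24, limma adjusted p = 7.1e-06) and 2.94 for Gm13109 (SE 0.22, limma adjusted p = 9.6e-06). Gm13128 at 2.71, Pramef17 at 2.48, Pramel5 at 2.44 and Pramel4 at 2.34 had limma adjusted p between 4.2e-06 and 8.2e-05. Gm13083 at 1.44 (limma adjusted p = 0.00035) and Gm13119 at 0.89 (limma adjusted p = 0.0066) followed, and Pramef8 at 0.48 (SE 0.18, limma adjusted p = 0.045) passed only narrowly. The call of Pramef8 was lost in 10 of 12 alternative fits, with limma adjusted p from 0.053 to 0.34. When each group was given its own variance weight, Gm13083 (limma adjusted p = 0.066) and Gm13119 (limma adjusted p = 0.076) were also lost, which left 7. Fitted to the libraries of these groups alone, 8 members were called, with limma adjusted p from 0.02 to 0.034. In that fit Gm13119 (limma adjusted p = 0.14) and Pramef8 (limma adjusted p = 0.34) were lost.

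The level of Kdm4d RNA differed between the overexpression groups. Kdm4d had 8879 and 2255 FPKM in Kdm4d embryos, against 723 and 283 FPKM in mutant Kdm4d embryos and 0.543 and 0.327 FPKM in SCNT embryos. The log2 difference between the overexpression groups was 3.30 (SE 0.52, limma adjusted p = 0.00049). How much of the introduced sequence these values cover is unknown. Within the Kdm4d group, the library with more Kdm4d RNA had the lower members' sum, 223 against 280 FPKM. Pramef8 and Gm13109 were higher in that library and the other members lower. These are only 2 libraries, and a relation to the amount of Kdm4d RNA was not tested. The mutation and the amount of Kdm4d RNA cannot be told apart between these groups.

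Kdm4d embryos also stood above plain SCNT embryos. The genes are treated as selected for low SCNT values, which favours higher values in Kdm4d embryos. All 10 members were called higher by limma and none lower, where 21.0% of tested genes were called higher and 18.4% lower, and nothing is read from that count. Both Kdm4d libraries lay above both SCNT libraries in each of the 10, as in 31.9% of tested genes. The members' median log2 difference was 1.94 and that of all genes -0.0217. The difference was 5.58 for Gm13078 (SE 0.55) and 3.55 for Pramef6 (SE 0.24). Next came Gm13128 at 2.43 (SE 0.22), Pramel4 at 2.11 (SE 0.27), Gm13109 at 1.98 (SE 0.22), Pramel5 at 1.89 (SE 0.20), Pramef17 at 1.84 (SE 0.16) and Gm13083 at 1.74 (SE 0.21). The smallest differences were those of Gm13119 at 1.00 (SE 0.22) and Pramef8 at 0.86 (SE 0.18), and with libraries scaled to equal FPKM sums that of Pramef8 was 0.24.

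Mutant Kdm4d and plain SCNT embryos both held most of the members at low levels. Pramel5 and Pramef8 were exceptions. Pramel5 was at 40.4% of the IVF mean in mutant and 60.6% in SCNT embryos, and Pramef8 at 48.3% and 35.8%. Pramef6, Pramef17, Gm13083 and Gm13128 were below 1 FPKM in all 4 libraries and passed the filter on low values only through other groups, so differences between these groups say little of them. Of the 10 members 0 were called higher and 2 lower by limma, where 11.1% of tested genes were called higher and 6.28% lower; at an unadjusted p under 0.05, 0 were higher and 3 lower. Those called were Gm13109, with a log2 difference of -0.96 (SE 0.22), and Pramef17 with -0.64 (SE 0.16), and neither was called without the first mutant or the first SCNT 2-cell library. The members' median was -0.11, and that of all genes 0.00869. The difference of Gm13078 was 1.17 without the first mutant library and -1.14 without the second, so its direction rests on a single library.

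**Figure D3:**
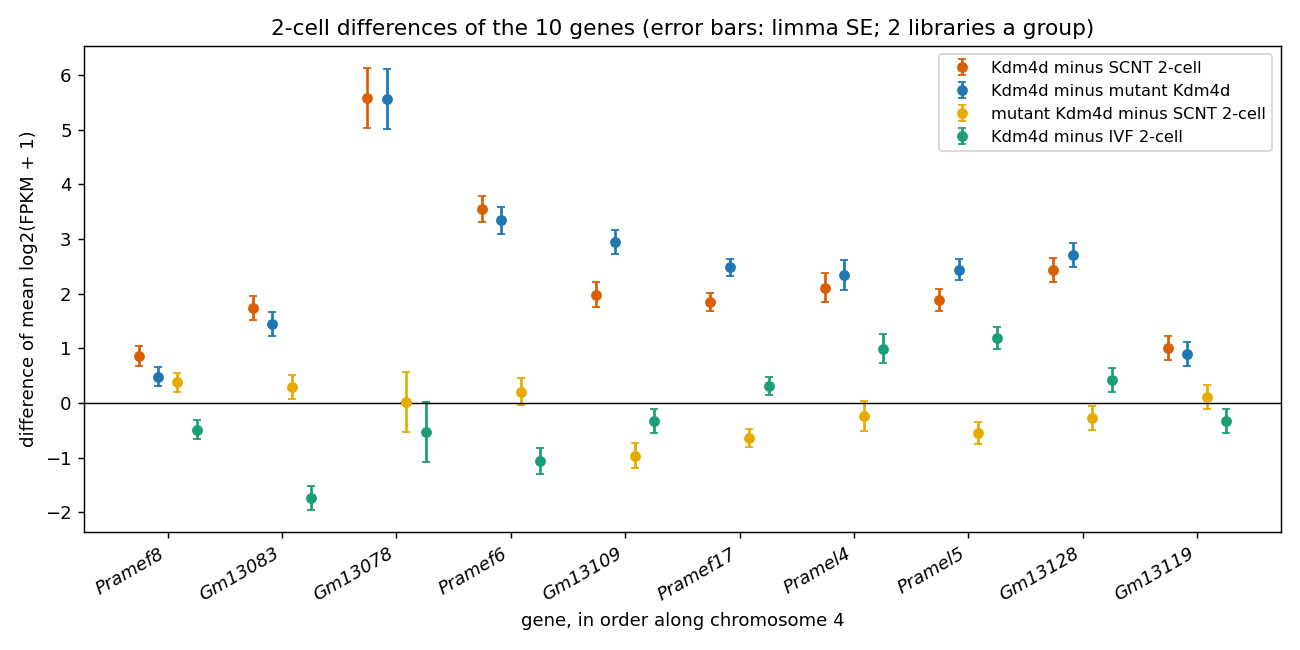
Log2 difference of each member on the log2(FPKM + 1) scale for Kdm4d against SCNT, Kdm4d against mutant Kdm4d, mutant Kdm4d against SCNT and Kdm4d against IVF 2-cell embryos; bars are limma standard errors. The first 2 comparisons lie above 0 for all 10 members, from 0.86 to 5.58 and from 0.48 to 5.56, whereas mutant Kdm4d against SCNT runs from -0.96 to 0.38.

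Kdm4d embryos lay on both sides of the IVF level, from 23.8% to 241% of the IVF mean. As a share of the IVF mean, Kdm4d embryos reached a median of 78.2% over the 10 genes, mutant Kdm4d embryos 6.95% and SCNT embryos 17.6%. Gm13083 stayed lowest, with Kdm4d embryos at 23.8% of IVF, followed by Pramef6 at 46.9%, Gm13078 at 69.1%, Pramef8 at 70.7%, and Gm13109 and Gm13119 at 78.2% each. Pramef17 at 130%, Pramel5 at 236% and Pramel4 at 241% were above the IVF mean, as was Gm13128. The IVF libraries are among those on which the genes were treated as selected, for high values, which favours lower shares in Kdm4d embryos. By limma 2 members were called higher in Kdm4d than in IVF embryos, where 16.6% of tested genes were, and 2 lower, where 3.61% were, and nothing is read from these counts. The members' median log2 difference was -0.33, and that of all genes 0.183. With quantile normalization these medians were -0.59 and -0.0133, and with equal FPKM sums -0.62 and 0.00435. In each of these 2 fits 1 member was called higher and 3 lower. The largest differences were 1.19 for Pramel5 (SE 0.20) and 1.00 for Pramel4 (SE 0.27) on one side, and -1.74 for Gm13083 (SE 0.21) and -1.06 for Pramef6 (SE 0.24) on the other. For Gm13078 the difference was -0.54 (SE 0.55), about the size of its error. Without the second Kdm4d library, the difference of Pramel4 was 0.51.

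Without added Kdm4d, Pramel5 and some other members were seen at the 2-cell stage after nuclear transfer. Pramel5 had 17.4 and 14.1 FPKM in SCNT 2-cell embryos, against 0.0294 and 0.0411 FPKM in SCNT 1-cell embryos, a log2 difference of 4.01 (SE 0.20). It was 1.67 for Gm13109 (SE 0.22), 1.08 for Pramel4 (SE 0.27), 1.02 for Gm13119 (SE 0.22) and 0.89 for Gm13128 (SE 0.22). The differences of Gm13078 (0.46, SE 0.55), Pramef17 (0.35, SE 0.16), Pramef6 (-0.35, SE 0.24), Pramef8 (-0.56, SE 0.18) and Gm13083 (-0.62, SE 0.21) were smaller, and with libraries scaled to equal FPKM sums that of Pramef8 was 0.13. By limma 5 members were called higher and 2 lower at the 2-cell than at the 1-cell stage of SCNT embryos, where 35.4% of tested genes were called higher and 31.5% lower. The genes are treated as selected for low values in the SCNT 2-cell libraries. Pramef6, Pramef17, Gm13083 and Gm13128 were below 1 FPKM in all 4 libraries, and nothing is read from these counts.

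In IVF embryos every one of the 10 was higher at the 2-cell than at the 1-cell stage, by a median log2 difference of 2.90, where 30.3% of tested genes were called higher and 37.2% lower. SCNT 2-cell embryos were below IVF 2-cell embryos in all 10, by a median of -1.77, where 16.5% of tested genes were called lower and 30.2% higher. The genes are treated as selected on both contrasts, and nothing is read from these counts. Between SCNT and IVF 1-cell embryos a test could show little, since 9 of the 10 members had means below 1 FPKM in both groups and passed the filter only through 2-cell embryos. There 0 of 10 members were called by limma in either direction, where 1.24% of tested genes were called higher and 0.892% lower, and 0 had an unadjusted p under 0.05. Pramef8, the one member present at this stage, differed by 0.12 on the log2 scale (SE 0.18).

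Most of the abundant neighbours of the 10 genes were higher at the 1-cell than at the 2-cell stage of IVF embryos. Of the 16 other PRAME-family genes in the cluster, 10 had a mean of at least 5 FPKM in some group, and 9 of those, Oog2, Oog3, Oog4, C87977, Gm13023, Gm13084, Gm13103, Gm13125 and Pramef12, were higher in IVF 1-cell than in IVF 2-cell embryos. Summed over the 16, levels were 6860 and 6740 FPKM at the IVF 1-cell stage, against 11.3 to 13.4 FPKM for the 10 genes in 1-cell embryos. Oog3, an oogenesin that led this sum, had 2787 and 2193 FPKM in Kdm4d embryos, 4781 and 2849 FPKM in mutant Kdm4d embryos, 1268 and 1750.5 FPKM in SCNT embryos and 1876 and 1724 FPKM in IVF embryos. Of the 13 that were tested, 4 were higher and 1 lower in Kdm4d than in SCNT embryos (21.0% and 18.4% over all tested genes), 3 higher and 6 lower in Kdm4d than in mutant Kdm4d embryos (21.3% and 22.3%), and 5 higher and 0 lower in mutant Kdm4d than in SCNT embryos (11.1% and 6.28%). The 3 that were higher in Kdm4d than in mutant Kdm4d embryos were BC080695, Gm13102 and Pramef12. Gm13102 passed the filter on low values only through the Kdm4d libraries, which favours its calls as higher there. Between IVF 2-cell and IVF 1-cell embryos 3 of the 13 were higher, BC080695, Gm13102 and Pramel1, and 10 lower (30.3% and 37.2%). Gm13103 had 60.7 and 31.0 FPKM in mutant Kdm4d embryos and 9.90 and 12.6 FPKM in SCNT embryos (log2 difference 1.87, SE 0.28, limma adjusted p = 0.0021).

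BC080695 (143157370 to 143163701) was the one of these 10 abundant neighbours that was not higher at the IVF 1-cell stage. It had 13.8 and 9.35 FPKM in Kdm4d embryos, 0.168 and 0.896 FPKM in mutant Kdm4d embryos, 1.75 and 1.23 FPKM in SCNT embryos and 15.9 and 14.5 FPKM in IVF 2-cell embryos. Its log2 difference was 2.32 for Kdm4d against SCNT embryos (SE 0.25, limma adjusted p = 4.8e-05) and 3.06 for Kdm4d against mutant Kdm4d embryos (SE 0.25, limma adjusted p = 1.5e-05). Its transcript is 96.2% identical to that of Gm13109 and shares 31.5% of its stretches with the members, so part of its signal may belong to them or theirs to it. Gm13102, the near-copy of Pramel4, had 1.13 and 2.54 FPKM in Kdm4d embryos, 0 and 0.118 FPKM in mutant Kdm4d embryos, 0.103 and 0.250 FPKM in SCNT embryos and 0.429 and 0.379 FPKM in IVF 2-cell embryos. Its log2 difference was 1.23 for Kdm4d against SCNT embryos (SE 0.19) and 1.38 for Kdm4d against mutant Kdm4d embryos (SE 0.19). Gm13102 reached 1 FPKM only in the Kdm4d libraries, so it passed the filter only through the group where it was high. These differences are therefore descriptions. Reads of Gm13102 cannot be kept apart from those of Pramel4. Along the chromosome the members stand in runs between other genes of the family: Pramef6, Gm13109, Pramef17 and Pramel4 follow each other, as do Pramel5, Gm13128 and Gm13119.

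**Figure D4:**
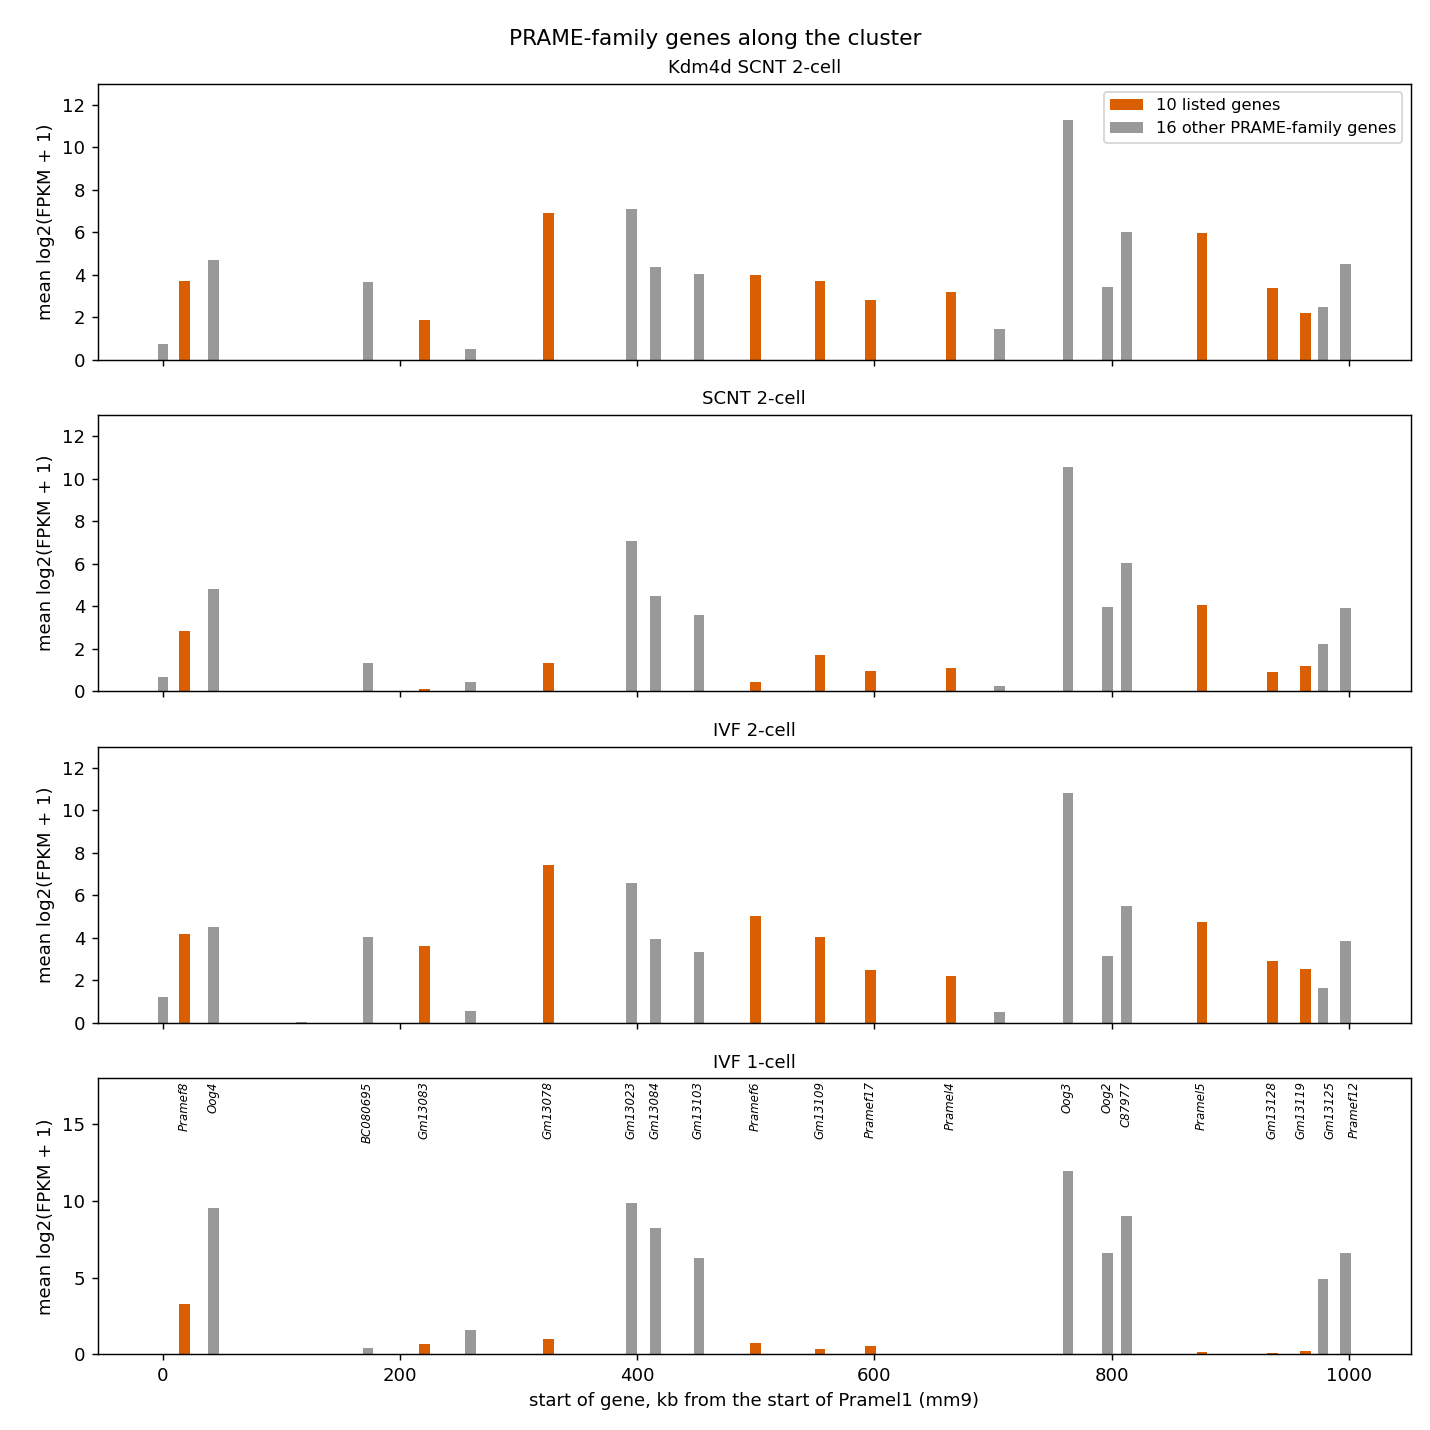
Mean log2(FPKM + 1) of each PRAME-family gene by its distance in kb along the cluster, in Kdm4d, SCNT and IVF 2-cell embryos and IVF 1-cell embryos; the 10 genes and the 16 others are coloured apart. At the IVF 1-cell stage 9 of the other genes, such as Oog3, stand high, others of them are near 0, and 9 of the 10 genes are at or below 1.18 FPKM.

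Outside the cluster, other PRAME-family genes also differed. Of 18 such genes 12 were tested, and 8 were higher and 0 lower in Kdm4d than in SCNT embryos (21.0% and 18.4% over all tested genes), while 7 were higher and 4 lower in Kdm4d than in mutant Kdm4d embryos (21.3% and 22.3%). B020004J07Rik, from another group of PRAME-family genes on chromosome 4, had 47.3 and 44.8 FPKM in Kdm4d embryos, 1.33 and 2.69 FPKM in mutant Kdm4d embryos, 5.66 and 4.38 FPKM in SCNT embryos and 71.8 and 71.7 FPKM in IVF embryos. Its log2 difference was 2.97 for Kdm4d against SCNT embryos (SE 0.24), within the range of the 10 genes. B020004J07Rik was also named among transcripts of the 2-cell stage with results of these libraries known, so its difference is a description. Pramel7 on chromosome 2, needed for the naive pluripotent state of the mouse inner cell mass, had 65.3 and 137 FPKM in Kdm4d embryos, 14.4 and 43.6 FPKM in mutant Kdm4d embryos, 44.2 and 30.7 FPKM in SCNT embryos and 102 and 115 FPKM in IVF embryos. Unlike Gm13078, Pramel7 was thus well represented in SCNT embryos, and its difference between Kdm4d and SCNT was 1.34 (SE 0.43, limma adjusted p = 0.027).

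Other transcripts of the 2-cell stage, on a list of 33, were mostly higher in Kdm4d embryos too. Of 27 tested, 23 were higher and 0 lower in Kdm4d than in SCNT embryos (median log2 difference 1.64, against 1.94 for the members), where 21.0% and 18.4% of all tested genes were. In the same list 25 were higher and 0 lower in Kdm4d than in mutant Kdm4d embryos (median 2.02, against 2.46), where 21.3% and 22.3% of all tested genes were. Against IVF embryos, 1 was higher and 9 lower in Kdm4d embryos (16.6% and 3.61%). The higher was Hspa2 at 0.92 (SE 0.28), a testis heat shock gene. The list was drawn up with results of these libraries known, so its counts describe it only.

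Over the 14 libraries, the gene most like the members' mean log2 level among 8922 candidates was Obox3 (Pearson r = 0.990). It is a homeobox gene of the Obox family on chromosome 7. Its levels were 0.131 and 0.184 FPKM in IVF 1-cell embryos and 0.150 and 0.171 FPKM in SCNT 1-cell embryos. Obox3 had 90.4 and 110.5 FPKM in Kdm4d embryos, 3.35 and 6.93 FPKM in mutant Kdm4d embryos, 3.88 and 5.06 FPKM in SCNT 2-cell embryos and 141 and 128 FPKM in IVF 2-cell embryos. Gm9125 and Gm1995 followed (r = 0.988 each), then Tchh and Rbmx2 (r = 0.983 each). Each member was also set against the mean of the other 9: r was highest for Gm13109 and Gm13128 (0.978 each) and lowest for Pramel5 (0.823) and Pramef8 (0.702). These libraries share their groups, and the correlations are given as descriptions.

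Some other quantities differed between the groups beside these results. FPKM sums ran from 183295 to 345760 per library and were lowest in SCNT 2-cell embryos. Relative depth was 0.508 and 0.415 in Kdm4d libraries, 0.462 and 0.497 in mutant Kdm4d libraries and at least 0.779 in the other embryo libraries, with the deepest at 1. The 12 oocyte markers summed to between 2340 and 3430 FPKM in Kdm4d embryos, between 2810 and 5800 FPKM in mutant Kdm4d embryos, between 1150 and 1340 FPKM in SCNT 2-cell embryos and between 1950 and 2000 FPKM in IVF 2-cell embryos. Of these 12, Zp3, Oosp1, Btg4 and Bcl2l10 were higher and 0 lower in Kdm4d than in SCNT embryos, and Zp3 was higher and Bmp15 lower in Kdm4d than in mutant Kdm4d embryos; Gdf9, Bmp15, Oosp1, Btg4 and Bcl2l10 were higher and 0 lower in mutant Kdm4d than in SCNT embryos. Figla, at most 3.13 FPKM in an embryo library, was listed at 0 in 1 Kdm4d and 1 mutant Kdm4d library, and no other oocyte marker was at 0 in an embryo library. The 12 cumulus markers summed to between 19200 and 25000 FPKM in donor cells, and to between 137 and 205 FPKM in Kdm4d, 72.8 and 96.2 FPKM in mutant Kdm4d, 65.3 and 70.0 FPKM in SCNT 2-cell and 111 and 116 FPKM in IVF 2-cell embryos. Of these 12, Gja1, Tnfaip6 and Nr5a2 were higher and Akr1c18 lower in Kdm4d than in SCNT embryos, and the same 3 were higher and Spp1 lower in Kdm4d than in mutant Kdm4d embryos. Gja1, which encodes connexin 43, made up most of the Kdm4d sum, with 94.95 and 158 FPKM in Kdm4d embryos against 35.9 and 34.2 FPKM in SCNT embryos. Foxl2 and Fshr were listed at 0 in both Kdm4d libraries, but their means were only 3.12 and 8.18 FPKM in donor cells. Cyp11a1, Akr1c18, Has2, Ptx3, Lhcgr and Inhba were below 1 FPKM in both Kdm4d libraries. Spp1 had 10.2 and 4.35 FPKM there, Tnfaip6 11.3 and 9.22 FPKM, and Nr5a2 19.3 and 32.8 FPKM. The part of these quantities in the levels of the 10 genes was not tested. In pooled embryos, more embryos transcribing a gene and more RNA per embryo cannot be told apart.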

How the data were processed

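RNA-seq libraries were made with the SMARTer Ultra Low Input kit and NEBNext Ultra reagents and read as single ends of 50 bases on an Illumina HiSeq, per the labels' protocols. Per the submitters' processing notes, the authors used Novoalign and Cufflinks 2.0.2, with the genome build mm9. The deposited table holds FPKM made by the authors for 23697 rows and 14 libraries. Strand, annotation and the handling of reads with several matches are not stated, so values of near-identical copies may be split or shared. Read counts are not in the table, and no interval for counting error is given.

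From these values, 796 short-RNA rows were removed and 640 rows that shared a symbol were summed. The test covered 13452 genes that reached 1 FPKM in 2 or more libraries, with limma 3.58.1 in R 4.3.3 on log2(FPKM + 1), with no further scaling. All 7 group means were in one model with an intensity trend and robust moderation (7 residual and a median of 4.73 prior degrees of freedom). Adjustment was that of Benjamini and Hochberg over all tested genes, at a threshold of 0.05, and the procedure was tested on simulated data. One variance per gene serves all groups, although the Kdm4d and mutant Kdm4d libraries varied more. Relative depth came from the most common ratio of low values between libraries. Starts on mm9 count from 1.

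PRAME-family genes were found by symbol and by RefSeq synonyms, and those whose mean reached 5 FPKM in some group could be named. Shared stretches of 50 bases were counted on both strands of GENCODE M21 transcripts, and promoters are RefSeq sequences on GRCm38.p6. The genes most alike were ranked by Pearson's r with the members' mean log2 level. Members and lists were chosen with earlier results of these data known. Members' p-values are given for Kdm4d against mutant Kdm4d embryos only. Alternatives were a pseudocount of 0.1, no filter, quantile normalization, equal FPKM sums, only the groups compared, group weights, a replicate block, the highest row of a symbol, and leaving out each library.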

Additional observations from a re-analysis of the deposited data

How the results depend on the processing

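Across 12 alternative fits of each member in the comparisons of Kdm4d with SCNT and with mutant Kdm4d embryos, 223 of the values kept direction and call, 17 lost the call and none reversed. Counts of members are descriptions, those of Kdm4d against mutant Kdm4d embryos included, since the values that chose the genes are not recorded. The members called against SCNT embryos numbered from 8 to 10. Against mutant Kdm4d embryos they numbered from 7 to 10. Between mutant Kdm4d and SCNT embryos the 2 calls became 0 with group weights and 0 with only the groups compared, and ranged from 0 to 4 when a library was left out. Between Kdm4d and IVF embryos the 4 calls became 2 with a pseudocount of 0.1 and 1 with only the groups compared, and ranged from 2 to 6 when a library was left out (6 without the first Kdm4d library, 2 without either IVF library). Between SCNT and IVF 1-cell embryos, where none was called, group weights and only the groups compared gave 1 each. Fits with only the groups compared rest on 4 libraries; the cause of the other shifts was not tested. The replicate numbers do not pair the libraries by any label, and deviations of same-numbered libraries correlated between -0.155 and 0.191. With a replicate block, 10 members were called against SCNT and 9 against mutant Kdm4d embryos, Pramef8 being lost (limma adjusted p = 0.053), and the other counts did not move. Scaling to equal FPKM sums shifted the median of all genes in Kdm4d against SCNT embryos to -0.461, with 1158 genes higher and 5838 lower in place of 2820 and 2479; 9 members stayed called. The shallow Kdm4d and mutant Kdm4d libraries limit the lowest values, where a level near 0 is not shown to be absence.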
